A study of Mus musculus with 9 samples.

Results

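T-cell receptor (TCR) chains of single cells were compared between the deep cervical lymph nodes (dCLN) of 5xFAD mice and those of wild-type (WT) mice. The dCLN material came from the 2 contig tables whose titles name these nodes without CD4, 1 library per genotype. Barcodes were kept as cells when their productive contigs held 1 TRB chain, no more, and either 1 or 2 TRA chains. By this rule 2742 cells were found in the 5xFAD library and 1227 in the WT library, 3969 of the 23051 cells in all 9 libraries of the series. Where a cell had 2 TRA chains, the one with more unique molecular identifiers (UMIs, tags that mark single RNA molecules) was used. A clonotype was a distinct set of V gene, J gene and junction nucleotides of both chains, with TRAV genes taken by subgroup. There were 2726 clonotypes in 5xFAD and 1173 in WT.

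Both groups were female mice of 10 to 11 months, killed by anaesthetic overdose and perfused before the nodes were taken, and the labels name no other treatment for either. 5xFAD mice are a transgenic model of amyloid deposition, with transgenes driven in neurons by the Thy1 promoter. The labels give the genotype alone: they name no transgene, no strain background and no littermate status for the WT mice. They call the cells immune cells and say that hashtag-stained cell suspensions were combined before loading, but not how many animals stood behind a library. With 1 library per genotype, every difference below is a difference between 2 libraries. The intervals are exact 95% intervals and cover counting error only, not the spread between animals.

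Deep cervical nodes receive lymph from the meninges and brain, and T cells recirculate through them. Each alpha-beta T cell builds its receptor by recombination: a V and a J segment are joined in the TRA locus, and a V, a D and a J segment in the TRB locus. Bases are trimmed and added at the joins, so that the junction marks a cell and its descendants, and cells with the same junctions in both chains are read as a clone. The TRB locus holds a pair of D segments. TRBD1 lies upstream of both J clusters and can join TRBJ1 or TRBJ2 genes, whereas TRBD2 lies between the clusters and can join TRBJ2 genes only. The D segments are shown because their length and their runs of G set what can be recognised in a junction. The sequences are from GENCODE M21 (GRCm38), TRBD1 at chr6:41533201-41533212 and TRBD2 at chr6:41542163-41542176, both on the plus strand, 5′ to 3′, with no base in capitals.
TRBD1: gggacagggggc
TRBD2: gggactgggggggc

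The 2 libraries differed in depth. The 5xFAD library held 8426 contigs in 5059 barcodes and the WT library 3695 contigs in 2269 barcodes. Summed UMIs were 75569 (Poisson interval 75031 to 76110) in 5xFAD and 28460 (28130 to 28793) in WT, from 19489372 reads in 5xFAD and 14289550 in WT, which gives 258 reads per UMI in 5xFAD and 502 in WT. The share of barcodes that met the rule for a cell was nearly the same, at 54.2% (52.8 to 55.6) in 5xFAD and 54.1% (52.0 to 56.1) in WT. Barcodes with 2 or more TRB chains, which can hold more than 1 cell, were set aside by the rule and made up 4.01% (3.49 to 4.59) in 5xFAD and 2.86% (2.22 to 3.64) in WT. The 2 libraries shared 18 barcodes and 0 combinations of barcode and junction. No TRG, TRD or immunoglobulin contig was listed in either library, so the cells matched the alpha-beta T cell by their paired chains, and the tables could not show other cell types.

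The TRA germline sequences of the 2 libraries were not alike, which bears on every TRAV and TRAJ value that follows. The V region matched a GRCm38 transcript exactly, up to the junction, in 13.1% of 5xFAD TRA chains (12.02 to 14.2) and in 54.7% of WT chains (52.2 to 57.2). The alleles called for 3 J genes differed between the libraries as well. TRAJ9, TRAJ34 and TRAJ32 each occurred as 1 called allele in 5xFAD and as a pair of alleles in WT. In 5xFAD 261 of 261 clonotypes with these genes carried that allele (100%, 98.6 to 100), against 50 of 92 in WT (54.3%, 43.6 to 64.8). TRAJ31, the other J gene with more than 1 called allele, had both alleles in both libraries: TRAJ31*01 was called in 28 of 127 5xFAD and in 25 of 47 WT clonotypes. The alleles of TRAJ9 and TRAJ34 are shown as the contigs held them, from position 13 to position 54 of the J segment (plus strand; TRAJ9 at chr14:54209393-54209450 and TRAJ34 at chr14:54184699-54184756 in GRCm38), with the bases that differ between the alleles in capitals.
TRAJ9*01: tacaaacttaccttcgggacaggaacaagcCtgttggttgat
TRAJ9*02: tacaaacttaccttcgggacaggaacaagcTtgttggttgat
TRAJ34*01: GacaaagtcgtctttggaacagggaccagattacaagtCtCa
TRAJ34*02: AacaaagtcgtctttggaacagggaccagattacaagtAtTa
The *02 sequences are those of the GRCm38 annotation. TRAJ9*01 was called in 92 of 92 5xFAD clonotypes and in 12 of 31 WT clonotypes, and TRAJ34*01 in 86 of 86 and in 21 of 37.

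In WT the V and J variants went together. Among WT clonotypes with the 5xFAD-type allele of these 3 J genes, the V region matched the reference in 8 of 50, and among those with the other allele in 42 of 42. Cells with 2 TRA chains showed both kinds side by side in WT. Such cells made up 6.38% of 5xFAD cells (5.50 to 7.36) and 4.48% of WT cells (3.39 to 5.80). In 5xFAD 41 of 175 of them had 1 chain that matched the reference and 1 that did not (23.4%, 17.4 to 30.4), against 47 of 55 in WT (85.5%, 73.3 to 93.5). The V call was ambiguous between TRAV genes for 5.49% of TRA contigs in 5xFAD and 22.2% in WT, while no TRB call was ambiguous. Genotype and TRA germline sequence cannot be told apart in these 2 libraries.

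**Figure D1:**
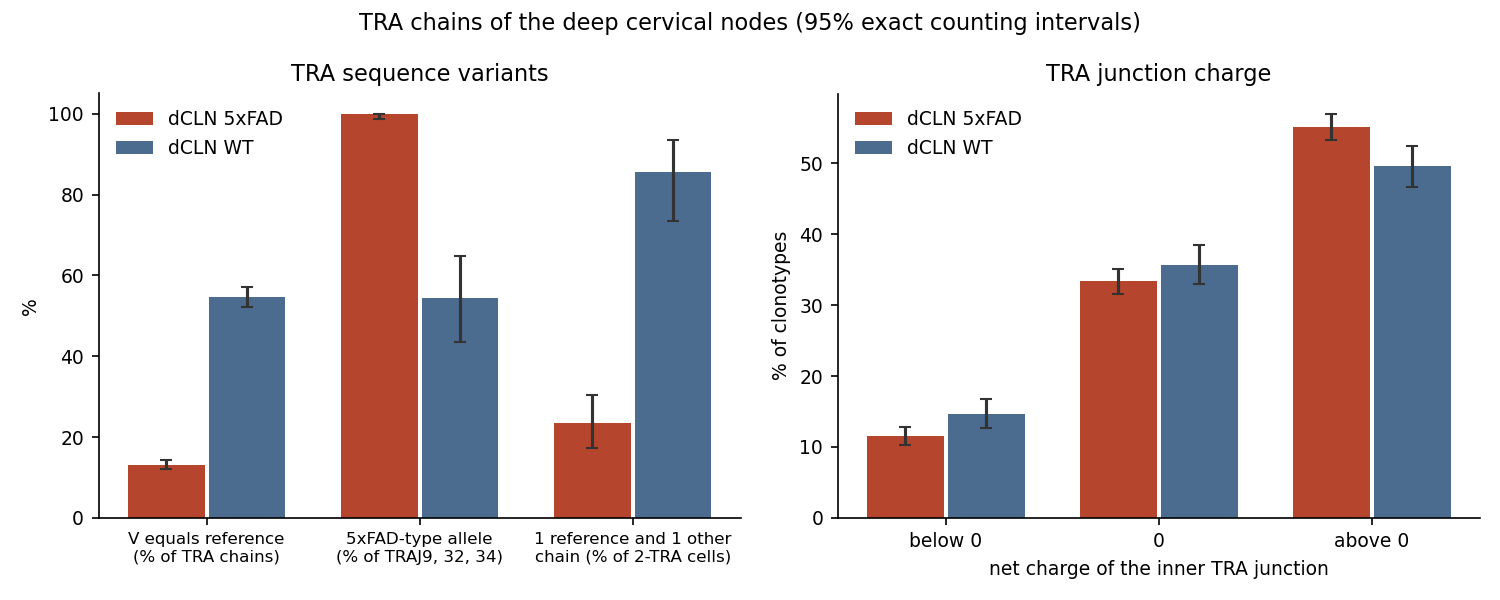
TRA chains of the dCLN libraries, 5xFAD left of WT in each pair of bars, with exact 95% counting intervals. The left panel gives the share of TRA chains whose V region equals the reference (13.1% in 5xFAD, 54.7% in WT), the share of TRAJ9, TRAJ32 and TRAJ34 clonotypes on the allele seen in 5xFAD (100% and 54.3%), and the share of cells with 2 TRA chains that held 1 reference chain and 1 other (23.4% and 85.5%). The right panel gives the share of clonotypes by net charge of the inner TRA junction, above 0 in 55.1% of 5xFAD and 49.6% of WT clonotypes.

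The pairing of V with J segments, and of TRA with TRB V genes, asks whether receptors of particular build were more frequent in one genotype. The shares of most pairs were within 2-fold between the libraries. A pair was counted as past 2-fold when it had at least 20 clonotypes over both libraries and its log2 ratio, with a pseudocount of 0.5 clonotypes, was at least 1 in size. The log2 ratios printed here are 5xFAD over WT without the pseudocount, each with its exact counting interval. Of the TRBV-TRBJ pairs 5 of 70 were past 2-fold (7.14%), 4 higher in 5xFAD (5.71%) and 1 lower (1.43%). Of the TRAV-TRAJ pairs it was 7 of 39 (17.9%), 5 higher (12.8%) and 2 lower (5.13%), and of the TRAV-TRBV pairs 7 of 66 (10.6%), 5 higher (7.58%) and 2 lower (3.03%). In each of the 3 kinds the share intervals of the 2 libraries overlapped for every pair tested. The interval of the ratio left out 0 for 8 of the 175 pairs (4.57%), with intervals drawn at the 95% level. The counts rest on the rule: with a pseudocount of 1 they were 2 TRBV-TRBJ and 4 TRAV-TRAJ pairs. With a minimum of 10 clonotypes they were 17 of 134 TRBV-TRBJ, 29 of 131 TRAV-TRAJ and 23 of 126 TRAV-TRBV pairs. With a minimum of 40 they were 1 of 25 TRBV-TRBJ and 3 of 17 TRAV-TRBV pairs, so not all pairs past 2-fold were rare.

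On the TRB side, the most frequent pairs in 5xFAD were TRBV1 with TRBJ2-7, at 60 clonotypes in 5xFAD and 21 in WT, and TRBV5 with TRBJ2-7, at 57 and 23. TRBV13-2 with TRBJ2-7 had 53 and 13, TRBV13-2 with TRBJ2-5 had 47 and 22, and TRBV31 with TRBJ2-7 had 41 and 18. Each of these made up between 1.504% and 2.20% of 5xFAD clonotypes and between 1.11% and 1.96% of WT clonotypes, so the commonest builds were shared. TRBV13-2, a member of the V-beta-8 family, held both ends of the range of TRBV-TRBJ differences. TRBV13-2 with TRBJ1-4 made up 0.70% of 5xFAD clonotypes (19; 0.42 to 1.09) and 0.17% of WT clonotypes (2; 0.021 to 0.62), a log2 ratio of 2.03 (-0.02 to 5.18). TRBV13-2 with TRBJ2-3 made up 0.59% (16; 0.34 to 0.95) in 5xFAD and 1.53% (18; 0.91 to 2.41) in WT, a log2 ratio of -1.39 (-2.45 to -0.33). TRBV13-2 as a whole was level, at 10.8% in 5xFAD and 10.7% in WT.

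The other TRBV-TRBJ pairs past 2-fold were all higher in 5xFAD. TRBV1 with TRBJ1-4 had 26 clonotypes in 5xFAD and 5 in WT, a log2 ratio of 1.16 (-0.24 to 2.90). TRBV29 with TRBJ2-5 had 21 and 4, at 1.18 (-0.39 to 3.18), and TRBV1 with TRBJ2-1 had 39 and 8, at 1.07 (-0.05 to 2.38). The intervals of these 3 included 0. In the superficial cervical (sCLN) and inguinal (iLN) nodes, which gave 1 library per genotype each, 1 of the 5 pairs, TRBV13-2 with TRBJ2-3, had the same sign as in dCLN in both.

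On the TRA side most pairs past 2-fold were of TRAV6, the largest subgroup, with 590 clonotypes in 5xFAD and 214 in WT. More pairs of a large subgroup reach the minimum of 20 clonotypes, so this count is not read as a trait of TRAV6. TRAV6 with TRAJ9 had 20 clonotypes in 5xFAD and 1 in WT, a log2 ratio of 3.11 (0.46 to 8.48). From the separate shares of TRAV6 and TRAJ9 in each library, 5xFAD had 1.00 times and WT 0.18 times the number expected of independent pairing. In the other nodes its log2 ratio with the pseudocount was 0.62 in sCLN and -1.13 in iLN, so the direction was not the same. TRAJ9 is one of the J genes with different alleles in the 2 libraries. TRAV6 with TRAJ49 (22 in 5xFAD, 4 in WT), TRAV6 with TRAJ50 (17 and 3), TRAV13 with TRAJ40 (20 and 3) and TRAV13 with TRAJ27 (17 and 3) were also higher in 5xFAD, with log2 ratios of 1.24 to 1.52 and intervals that included 0. TRAV6 with TRAJ33 (11 in 5xFAD, 12 in WT) had a log2 ratio of -1.34 (-2.66 to -0.03), and TRAV6 with TRAJ21 (10 and 10) one of -1.22 (-2.64 to 0.20). Of these 7 pairs 4 had the same sign in both other nodes: TRAV6 with TRAJ49, TRAJ33 and TRAJ21, and TRAV13 with TRAJ40.

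Across the J cluster, TRAV6 joined the middle J genes less often in 5xFAD by share. TRAJ18 to TRAJ34 made up 35.3% (31.4 to 39.3) of 590 TRAV6 clonotypes in 5xFAD and 46.3% (39.4 to 53.2) of 214 in WT. Those intervals did not overlap, and this was the only one of 40 combinations of TRAV subgroup and TRAJ group for which they did not. Over all TRAV subgroups the same J genes made up 35.6% (33.8 to 37.4) in 5xFAD and 38.2% (35.4 to 41.0) in WT. The most frequent TRAV6 pairs in 5xFAD were those with TRAJ15 (28 in 5xFAD, 8 in WT), TRAJ30 (26 and 10), TRAJ31 (26 and 13), TRAJ48 (23 and 7) and TRAJ32 (22 and 6), and their log2 ratios with the pseudocount lay between -0.24 and 0.58.

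TRAV-TRBV pairs join the V genes of both chains of a cell. TRAV5 with TRBV13-1 made up 0.84% (23; 0.54 to 1.26) of 5xFAD clonotypes and 0.17% (2; 0.021 to 0.62) of WT clonotypes, a log2 ratio of 2.31 (0.29 to 5.44). TRAV13 with TRBV13-3 had 41 clonotypes in 5xFAD and 7 in WT, at 1.33 (0.16 to 2.74). TRAV6 with TRBV13-3 had 46 and 9, at 1.14 (0.09 to 2.35). The pairs TRAV6 with TRBV3 (40 and 8) and TRAV8 with TRBV1 (24 and 4) had log2 ratios of 1.11 and 1.37 and intervals that included 0. Lower in 5xFAD were TRAV4 with TRBV13-2 (12 in 5xFAD, 15 in WT), at -1.54 (-2.76 to -0.34), and TRAV12 with TRBV13-1 (14 and 12), at -0.99 (-2.21 to 0.25). Of these 7 pairs, 6 had the same sign in both other nodes. The exception was TRAV13 with TRBV13-3, at -0.14 in sCLN with the pseudocount. For none of the 3 kinds of pair was the same sign counted over all tested pairs, so these counts do not show replication. The TRA alleles differed by genotype in the other nodes too. The 5xFAD-type allele of TRAJ9, TRAJ32 and TRAJ34 made up 100% in 5xFAD and 55.9% in WT in sCLN, and 100% and 51.4% in iLN. The subgroups TRAV5, TRAV8 and TRAV6 were themselves more frequent in 5xFAD, and TRAV4 and TRAV12 in WT. The frequent pairs TRAV6 with TRBV13-2 (72 in 5xFAD, 28 in WT), TRAV6 with TRBV5 (72 and 19), TRAV6 with TRBV1 (71 and 16) and TRAV13 with TRBV13-2 (43 and 12) stayed within 2-fold. Among them, TRAV6 with TRBV1 had a ratio interval above 0.

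**Figure D2:**
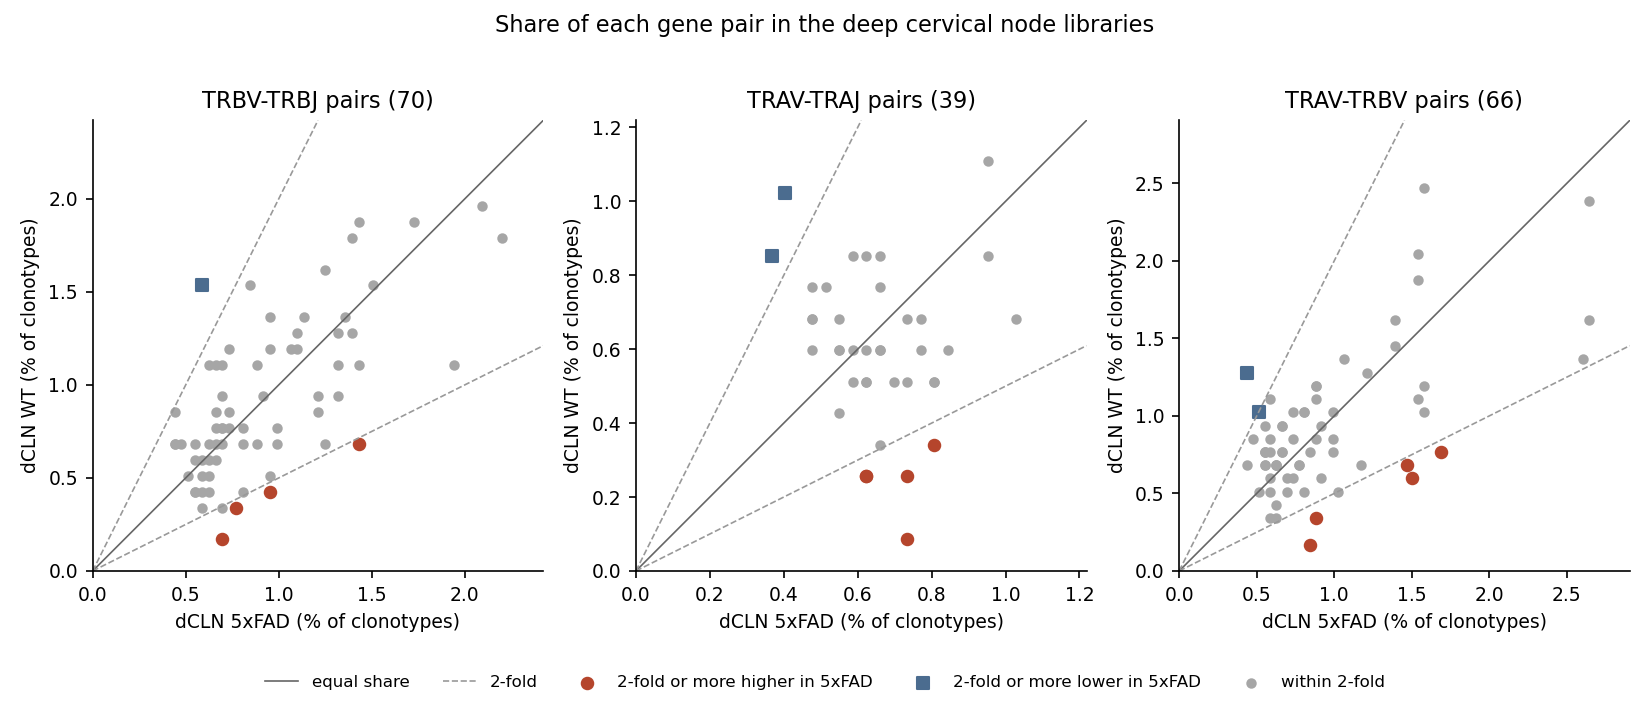
Share of clonotypes held by each TRBV-TRBJ, TRAV-TRAJ and TRAV-TRBV pair with at least 20 clonotypes over both dCLN libraries, 5xFAD on the horizontal and WT on the vertical axis. The solid line marks equal shares and the dashed lines 2-fold without a pseudocount. Large red circles (higher in 5xFAD) and blue squares (lower in 5xFAD) mark the 5 of 70, 7 of 39 and 7 of 66 pairs past 2-fold with the pseudocount.

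Among single genes with at least 40 clonotypes, 0 of 19 TRBV and 0 of 12 TRBJ genes were past 1.5-fold (0%), against 1 of 14 TRAV subgroups (7.14%) and 4 of 37 TRAJ genes (10.8%), 2 of them higher in 5xFAD (5.41%) and 2 lower (5.41%). TRAJ21 made up 1.43% (1.02 to 1.95) in 5xFAD and 2.73% (1.87 to 3.83) in WT, a log2 ratio of -0.93 (-1.64 to -0.21). TRAJ33, the J gene of mucosal-associated invariant T (MAIT) cells, made up 2.16% (1.65 to 2.78) in 5xFAD and 3.67% (2.67 to 4.91) in WT, at -0.76 (-1.35 to -0.16). TRAV3 made up 1.83% and 3.07%, at -0.74 (-1.39 to -0.08). TRAJ4 and TRAJ50 were higher in 5xFAD, with 33 and 71 clonotypes there against 8 and 19 in WT, and intervals of the ratio that included 0. TRAV12 did not reach 1.5-fold but was the one single gene or subgroup whose share intervals did not overlap, at 7.26% (6.32 to 8.30) in 5xFAD and 10.3% (8.63 to 12.2) in WT. By the interval of the ratio, more TRAV subgroups differed: it left out 0 for 6 of 14 (42.9%), 3 higher and 3 lower in 5xFAD. For the other kinds it left out 0 for 3 of 37 TRAJ (8.11%), 1 of 12 TRBJ (8.33%) and 0 of 19 TRBV genes (0%).

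Grouped by place in the locus, the genes showed small shifts. TRBJ2 genes made up 68.9% (67.1 to 70.7) of 5xFAD and 65.6% (62.8 to 68.3) of WT clonotypes, and TRBJ1 genes the rest. TRBJ1-1 accounted for most of the gap, at 10.4% (9.30 to 11.6) in 5xFAD and 13.5% (11.6 to 15.6) in WT. The V-proximal J genes, TRAJ50 and above, made up 13.4% and 13.04%, TRAJ35 to TRAJ49 28.1% and 27.0%, and TRAJ2 to TRAJ17 22.9% and 21.7%. The TRAV17 to TRAV21 group made up 2.90% and 2.98%, TRAV1 with TRAV2 1.69% and 1.62%, and the TRBV12-1 to TRBV17 block 41.1% and 41.5%. The intervals of the 2 libraries overlapped for each of these 9 lists.

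D use did not separate the libraries. TRBD1 was called in 37.5% (35.6 to 39.3) of 5xFAD and 39.5% (36.7 to 42.3) of WT clonotypes, and TRBD2 in 32.4% (30.6 to 34.2) and 30.3% (27.7 to 33.1). A call naming both segments was made in 5.50% (4.68 to 6.43) of 5xFAD and 4.94% (3.78 to 6.35) of WT clonotypes, and no D in 24.7% (23.1 to 26.4) and 25.2% (22.8 to 27.8). Within TRBJ2 clonotypes, where both segments can be used, TRBD2 was called in 44.7% of 5xFAD and 44.3% of WT clonotypes, and TRBD1 in 29.2% and 29.5%. Within TRBJ1 clonotypes TRBD1 was called in 55.7% (52.3 to 59.1) of 5xFAD and 58.4% (53.4 to 63.3) of WT clonotypes. The TRBD1 intervals of the 2 libraries overlapped within TRBJ1 and within TRBJ2.

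TRBD2 joined to a TRBJ1 gene runs against the order of the locus, so its rate gauges wrong D calls. It was called in 5.08% (3.70 to 6.78) of 847 TRBJ1 clonotypes in 5xFAD and in 3.71% (2.09 to 6.05) of 404 in WT. The matched part of D averaged 7.70 bases in 5xFAD and 7.73 in WT. TRBD1 was read in its 3 frames in 38.5%, 28.2% and 33.3% of its 5xFAD clonotypes and in 41.0%, 30.7% and 28.3% of its WT clonotypes, and TRBD2 in 38.9%, 28.1% and 33.0% and in 32.6%, 32.9% and 34.6%. The intervals overlapped for each frame.

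The number of added bases was also close for the TRB chain. On the TRB side 5xFAD averaged 2.75 bases between V and D, or between V and J where no D was called, and WT averaged 2.71. With a D call these means were 1.81 and 1.77, and the means between D and J were 1.67 and 1.70. Among junctions with a D call, those with no added base at either join made up 7.94% (6.81 to 9.19) in 5xFAD and 7.53% (5.87 to 9.47) in WT. On the TRA side 5xFAD averaged 2.73 bases between V and J and WT 2.55, a difference of 0.18 bases that was 0.17 in sCLN and 0.16 in iLN. In dCLN clonotypes without a reference TRA V region it was 0.11. No counting interval is given for these means. TRA junctions with no added base made up 18.4% (16.98 to 19.9) in 5xFAD and 19.4% (17.2 to 21.8) in WT, and those with 6 or more 10.3% (9.23 to 11.5) and 8.27% (6.76 to 9.99). The bases themselves were alike too: G or C made up 65.8% and 65.3% of the TRB bases between V and D, 52.6% and 53.9% of those between D and J, and 64.6% and 65.5% of the TRA bases, each time for 5xFAD and then WT.

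**Figure D3:**
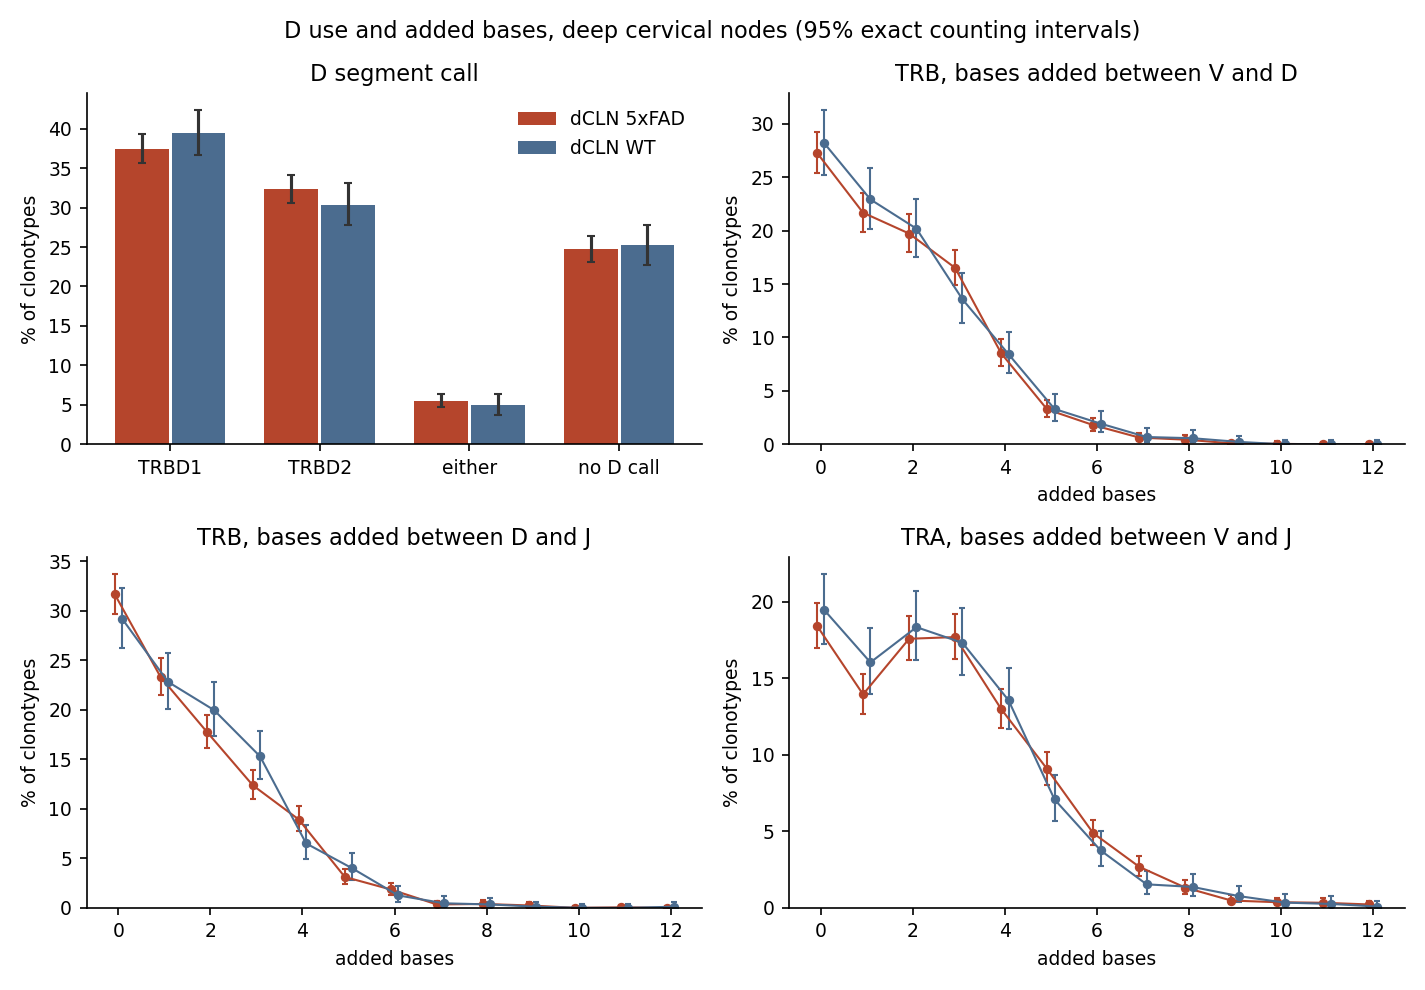
D call and added bases in dCLN clonotypes, 5xFAD (red) and WT (blue), as the share of clonotypes with exact 95% counting intervals. The horizontal axes of the other 3 panels give the number of bases added, to 12, in TRB clonotypes with a D call and in all TRA clonotypes, and 0 added bases were found in 18.4% of 5xFAD and 19.4% of WT TRA junctions.

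Junction length was level, at a mean of 13.9 residues for TRB in both libraries and of 13.5 residues for TRA in 5xFAD and 13.4 in WT. Composition was read from the residues left after the first 3 and last 3 of each junction, since those ends are mostly set by the V and J genes. Inner residues can be set by these genes too. In 5xFAD, TRA junctions of 13.5 residues on average held a mean of 2.73 added bases. In TRB the acidic residues made up 17.2% (16.7 to 17.7) in 5xFAD and 16.6% (15.8 to 17.4) in WT, basic ones 6.59% and 6.55%, glycine 18.5% and 18.2%, and aliphatic ones 12.7% (12.2 to 13.1) and 13.4% (12.7 to 14.1). A hydrophobic pair at positions 6 and 7, a feature associated in mice with self-reactive receptors, was found in 2.06% (1.56 to 2.66) and 1.96% (1.25 to 2.93). An inner cysteine in the TRB junction was found in 2 of 2726 5xFAD clonotypes and in 0 of 1173 WT clonotypes. A limit of 3 counts in WT is 0.256%. The intervals overlapped for all 9 residue groups of the TRB chain.

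The TRA junction was more often positively charged in 5xFAD. Its inner net charge, counting lysine and arginine against aspartate and glutamate, was above 0 in 55.1% of 5xFAD clonotypes (1503; 53.2 to 57.0) and in 49.6% of WT clonotypes (582; 46.7 to 52.5). The mean net charge was 0.58 in 5xFAD and 0.44 in WT. Lysine made up 8.80% (8.42 to 9.20) of inner TRA residues in 5xFAD and 8.40% (7.82 to 9.002) in WT, arginine 6.21% (5.89 to 6.55) and 5.62% (5.14 to 6.12), aspartate 4.24% (3.96 to 4.52) and 4.56% (4.13 to 5.02), and glutamate 3.11% (2.88 to 3.36) and 3.57% (3.19 to 3.99). The intervals overlapped for each of the 4, and lysine and arginine were higher, aspartate and glutamate lower, in 5xFAD. Among the planned residue groups of the TRA chain, basic residues with histidine made up 15.4% in 5xFAD and 14.4% in WT. Acidic ones made up 7.35% and 8.14%, and the intervals overlapped for all 9 groups. Net charge was not a planned measure. Its share above 0 was the only junction composition share of either chain with dCLN intervals apart over all clonotypes. The share above 0 differed by 5.52 percentage points in dCLN. In sCLN it differed by 1.04 and in iLN by 2.47 points in the same direction, with intervals that overlapped. TRB net charge was above 0 in 7.67% (6.70 to 8.73) in 5xFAD and 7.93% (6.45 to 9.62) in WT. The part of V and J gene use in the TRA charge was not tested.

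The charge was also read by TRA germline sequence. Among clonotypes whose TRA V region did not match the reference, net charge was above 0 in 55.7% (53.7 to 57.7) of 2362 in 5xFAD and 47.4% (43.1 to 51.8) of 527 in WT. Among those that matched it was above 0 in 51.4% in both (46.1 to 56.6 of 364 in 5xFAD, 47.5 to 55.3 of 646 in WT). The intervals did not overlap among chains without a reference V region and overlapped among those with one, and whether the 2 gaps differ was not tested. The split did not run the same way in sCLN, where the share without a reference V region was 52.7% in 5xFAD and 54.3% in WT, and with one it was 163 of 299 in 5xFAD and 298 of 596 in WT. In iLN the shares were 54.04% in 5xFAD and 48.8% in WT without one, and 59.1% in 5xFAD and 55.3% in WT with one. The intervals overlapped in each of these comparisons.

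Repeated receptors were fewer in 5xFAD than in WT. In 5xFAD 32 cells stood in 16 clones, each of 2 cells, which was 1.17% of cells (0.80 to 1.64). In WT 106 cells stood in 52 clones, 50 of 2 cells and 2 of 3 cells, which was 8.64% (7.13 to 10.4). These intervals take cells of the same clone as separate draws, so they can be too narrow. The 5xFAD library held more cells, which makes repeats easier to find. In a random subset of 1227 5xFAD cells the expected share, computed without drawing, was 0.522%. Per 1000000 pairs of cells, 4.26 (2.43 to 6.91) matched in 5xFAD and 74.5 (56.2 to 96.7) in WT, a rate 17.5 times as high in WT. Among cells whose TRA V region did not match the reference, 1.35% of 5xFAD cells and 10.1% of WT cells stood in clones. The rates were 5.66 in 5xFAD and 201 in WT among these cells. Pairs of 1 reference and 1 other cell never matched, so leaving them out raises a rate by itself. The direction was the same in the other nodes, with intervals that overlapped in iLN, at 15.5 (11.2 to 20.996) in 5xFAD and 60.3 (42.7 to 82.8) in WT for sCLN, and at 13.6 (6.22 to 25.8) and 18.96 (12.5 to 27.6) for iLN. The interval of dCLN 5xFAD overlapped that of iLN 5xFAD, and the interval of dCLN WT that of sCLN WT, so neither rate stood apart from both other nodes of its genotype.

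**Figure D4:**
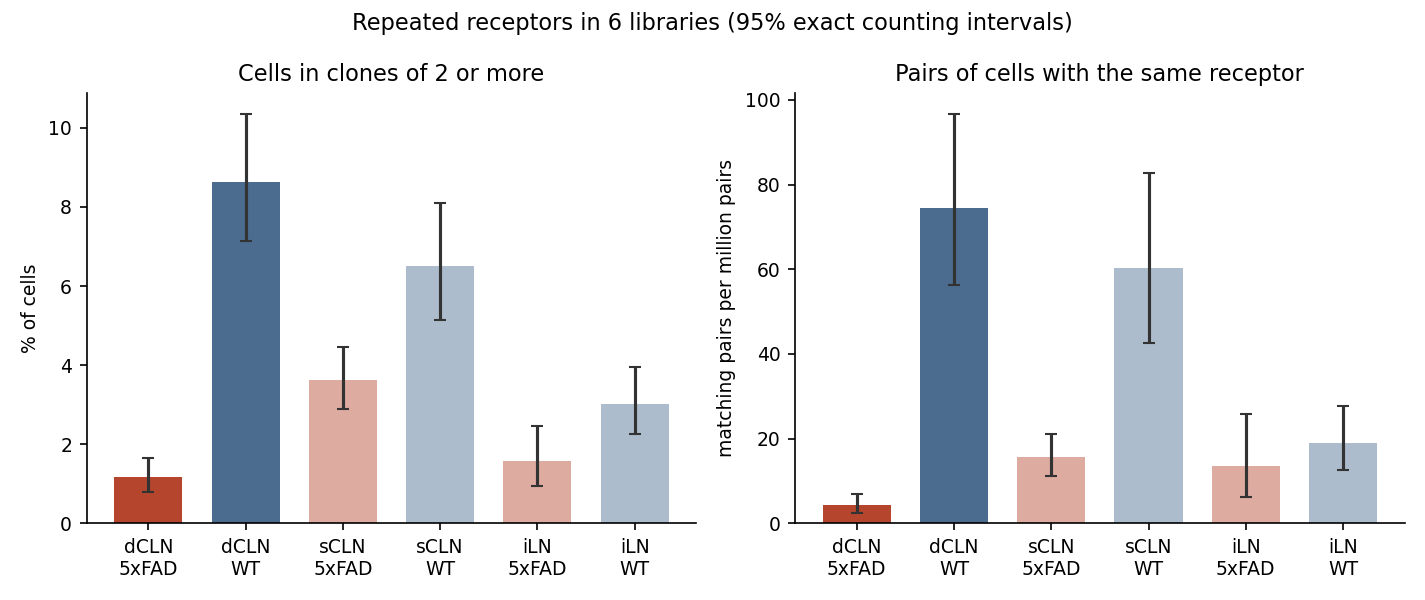
Repeated receptors in the 6 libraries of the 3 node types, 5xFAD left of WT in each node, with dCLN in full colour and exact 95% counting intervals. The left panel gives the share of cells in clones of 2 or more, 1.17% in dCLN 5xFAD and 8.64% in dCLN WT, and the right panel the matching pairs per 1000000 pairs of cells, 4.26 and 74.5.

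The clones of both libraries were spread over many genes. The 16 5xFAD clones used 10 TRBV genes, 7 TRBJ genes and 16 different TRBV-TRBJ pairs. The 52 WT clones used 16 TRBV genes, 12 TRBJ genes and 46 different pairs, and TRBV13-2 was the most used, in 7 clones. The WT clones fell into 25 whose cells all had a reference TRA V region, 27 whose cells all had another, and 0 that mixed them. All 16 5xFAD clones had a TRA V region other than the reference. Over all cells, such a V region was found in 2378 of 2742 in 5xFAD and in 556 of 1227 in WT, so most clones would have one in 5xFAD anyway. Within a clone the barcodes differed at 8 or more of their 16 bases in both libraries, so none was a near-copy of another. Cells in clones had a median of 8 TRB and 5 TRA UMIs in 5xFAD, against 10 and 6 for the other cells, and of 7 and 6 in WT, against 8 and 5. Of the WT clones 1 was also seen in another WT node, of the 5xFAD clones 0 in another 5xFAD node, and no clone of either library was seen in the other genotype's libraries of these 3 node types. The CD4-titled libraries were not searched.

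The largest WT clones and the 2 5xFAD clones with the most TRB UMIs are shown because they give the junctions that define a repeat. Sequences run from the codon of the conserved cysteine to that of the conserved phenylalanine or tryptophan, 5′ to 3′, and capitals mark bases that the deposited alignments assign to no V, D or J segment.
5xFAD clone 1, TRB: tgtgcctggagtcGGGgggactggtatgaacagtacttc
5xFAD clone 1, TRA: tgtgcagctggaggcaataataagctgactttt
5xFAD clone 2, TRB: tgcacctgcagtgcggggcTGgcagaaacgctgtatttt
5xFAD clone 2, TRA: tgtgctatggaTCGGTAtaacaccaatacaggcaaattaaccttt
WT clone 1, TRB: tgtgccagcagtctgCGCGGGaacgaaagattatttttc
WT clone 1, TRA: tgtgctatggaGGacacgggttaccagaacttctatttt
WT clone 2, TRB: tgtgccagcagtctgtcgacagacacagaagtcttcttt
WT clone 2, TRA: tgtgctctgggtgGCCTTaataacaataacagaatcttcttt
The first 5xFAD clone joined TRBV31 to TRBJ2-7 through TRBD2 and TRAV14 to TRAJ56, in 2 cells with 28 TRB UMIs in sum. The second joined TRBV1 to TRBJ2-3, with a D call that named both segments, and TRAV13 to TRAJ27, in 2 cells with 26. The WT clones had 3 cells each and both used TRBV26, the first with TRBJ1-4, TRAV13 and TRAJ49 and 48 TRB UMIs, the second with TRBJ1-1, TRAV6 and TRAJ31 and 16. The second was also seen in 1 cell of iLN WT. Neither of the 3-cell clones had a reference TRA V region.

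The remaining clones named by their TRB UMIs were of 2 cells each. In 5xFAD they were TRBV1 with TRBJ2-7 and TRAV7 with TRAJ30, TRBV29 with TRBJ1-1 and TRAV6 with TRAJ40, and TRBV4 with TRBJ2-7 and TRAV14 with TRAJ4, at 25, 23 and 22 TRB UMIs in sum. In WT they were TRBV4 with TRBJ2-5 and TRAV8 with TRAJ15, TRBV31 with TRBJ2-1 and TRAV6 with TRAJ31, TRBV13-3 with TRBJ2-2 and TRAV16 with TRAJ56, TRBV31 with TRBJ1-3 and TRAV3 with TRAJ21, and TRBV1 with TRBJ2-2 and TRAV14 with TRAJ26, at 37, 35, 28, 28 and 26. The TRAV8 clone of WT carried 89 TRA UMIs in its 2 cells, 36 in one and 53 in the other, against a median of 5 per TRA chain in that library.

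Junctions of single chains were shared between the libraries, mostly on the TRA side. By nucleotides, 2 TRB junctions were found in both, 0.074% of the 2720 distinct ones in 5xFAD and 0.17% of the 1169 in WT. For TRA 48 were found in both, 1.81% of 2655 in 5xFAD and 4.15% of 1156 in WT. The shared TRA junctions had few added bases, with a mean of 0.81, against 2.68 over all TRA clonotypes, and 31 of 48 had 0. The 2 TRB junctions and the shared TRA junction with the most clonotypes over both libraries are shown, with capitals as before.
Shared TRB 1: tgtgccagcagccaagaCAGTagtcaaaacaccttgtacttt
Shared TRB 2: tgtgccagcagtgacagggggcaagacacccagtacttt
Shared TRA 1: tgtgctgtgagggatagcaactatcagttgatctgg
The first joined TRBV5 to TRBJ2-4 with no D call, and the second TRBV13-3 to TRBJ2-5 through TRBD1 without an added base. Each was seen once per library, with different TRA partners. The TRA junction joined TRAV1 to TRAJ33 without an added base, the join known from MAIT cells, and was found in 2 clonotypes of 5xFAD, 4 of WT and 3 of the other 4 node libraries.

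Chains of innate-like T cells were few. The TRAV11-TRAJ18 chain of invariant natural killer T cells was carried by 0 of 2742 5xFAD cells, where a limit of 3 counts is 0.109%. It was carried by 3 of 1227 WT cells (0.24%, 0.050 to 0.71). The TRAV1-TRAJ33 chain with the junction length known from MAIT cells was carried by 5 cells in each library, 0.18% (0.059 to 0.43) in 5xFAD and 0.41% (0.13 to 0.95) in WT. For neither chain were the intervals of the 2 libraries apart.

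UMIs per chain were higher in 5xFAD for most cells. The median TRB chain had 10 UMIs in 5xFAD (quartiles 6 and 14) and 8 in WT (5 and 12), and the median TRA chain 6 (4 and 8) and 5 (3 and 7). TRB chains with 20 or more UMIs made up 9.45% (8.38 to 10.6) in 5xFAD and 5.05% (3.896 to 6.43) in WT. TRA chains with 1 UMI made up 1.31% (0.92 to 1.81) in 5xFAD and 4.56% (3.47 to 5.89) in WT. At the upper end TRA turned the other way, with 20 or more UMIs in 0.69% (0.42 to 1.08) of 5xFAD chains and 2.28% (1.52 to 3.28) of WT chains, so the WT values were spread wider on both sides. In the other nodes the median TRA count was also 1 higher in 5xFAD, whereas the TRB median differed by 1 in sCLN and 0 in iLN. The 5xFAD library had fewer reads per UMI, as given above, and the part of sequencing depth and of cell makeup in these counts was not tested.

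Within WT, chains with 1 UMI were more frequent where the TRA V region matched the reference. They made up 5.96% (4.29 to 8.03) of 671 such cells and 2.88% (1.65 to 4.63) of the other 556. In 5xFAD they made up 0.55% (0.067 to 1.97) of 364 and 1.43% (0.99 to 1.99) of 2378. Both intervals within a library overlapped. The median TRA count did not depend on the match, at 6 and 6 in 5xFAD and 5 and 5 in WT.

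**Figure D5:**
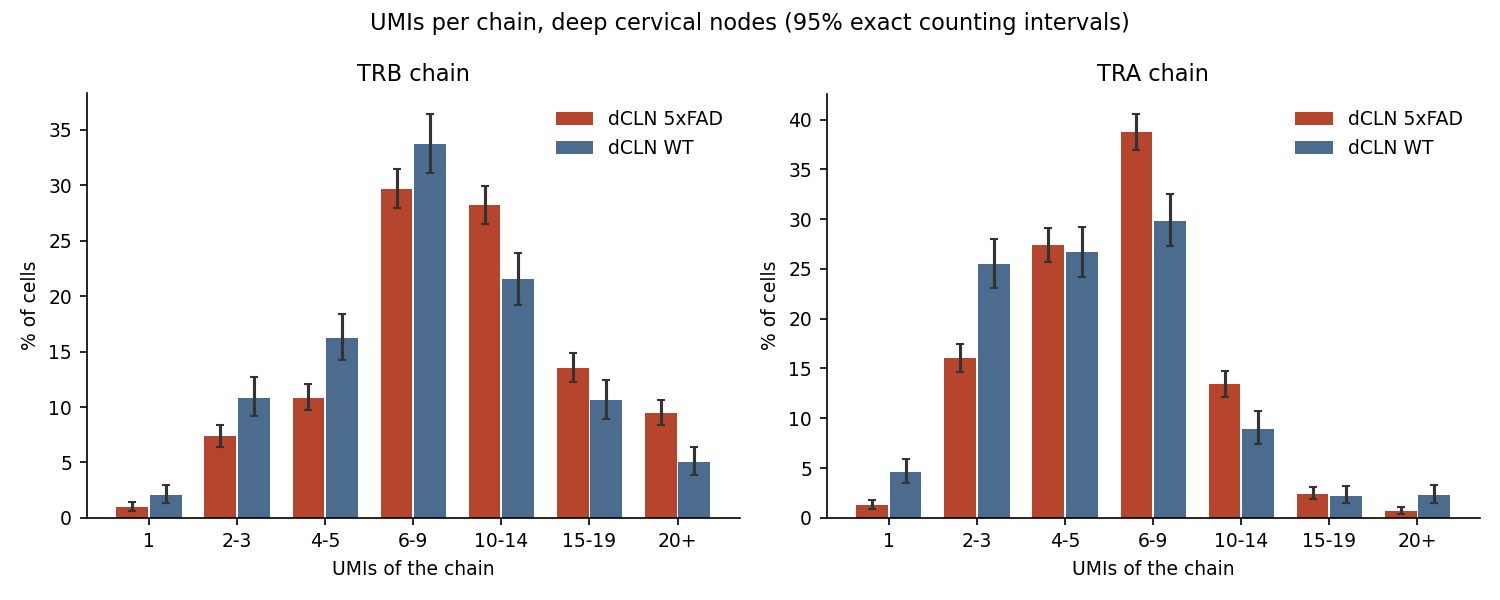
UMIs of the TRB and TRA chain of dCLN cells, as the share of cells in 7 classes, 5xFAD left of WT, with exact 95% counting intervals. TRB chains of 5xFAD sit further right (9.45% with 20 or more UMIs, against 5.05% in WT), and TRA chains with 1 UMI make up 1.31% of 5xFAD and 4.56% of WT cells.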

How the data were processed

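Each library had 1 deposited table with a row per contig, called with IgBLAST per the file headers. The authors' processing notes name Cell Ranger 6.0.1, Seurat 4.1.0 and mm10. Deposited counts are whole-number UMIs and reads per contig, not normalized. Other deposited values are junction and added-base lengths in nucleotides. The deposited fraction, V identity, was not used in a comparison. V, D and J calls and lengths were taken as deposited, the first V or J call where several were named.

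The tables listed 0 nonproductive contigs in these 2 libraries. Contigs without a junction (1 in each library) were dropped. No doublet caller was run beside the chain rule. Features were compared by clonotype, UMIs and clones by cell. Shares have exact Clopper-Pearson 95% intervals, ratios of counts exact conditional intervals, and sums and pair rates Poisson intervals. Cells of the same clone and residues of the same junction were taken as separate draws, so those intervals can be too narrow. For a 0, the limit was set at 3 counts, which lies below the upper end of the exact interval. With 1 library per genotype no test was run. Pairs were named if among the 5 most frequent in 5xFAD, or past 2-fold with at least 20 clonotypes, single genes if past 1.5-fold with at least 40, and clones if of 3 or more cells or among the 5 clones of 2 cells with the most TRB UMIs. TRAV12, TRBJ1-1, TRBV13-2 and the junctions shared between libraries were named after their values were seen. Net charge was not among the planned junction measures. TRA V regions were searched as exact matches in GENCODE M21 transcripts (GRCm38), which also gave positions and D sequences. Analyses ran in Python 3.11.15 with pandas 2.3.3, numpy and scipy, and were tested on simulated libraries. The groups, lists and rules were chosen with earlier results of these data known. Alternatives covered the counted unit, UMI and TRA chain filters, V calls, pseudocount, minimum counts, D match length and clone definition. The 2 CD4-titled dCLN libraries and the mixed library were not used here.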

Additional observations from a re-analysis of the deposited data

Results flagged for a closer look

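TRB chains with 20 or more UMIs were more frequent by 4.39 percentage points in 5xFAD than in WT in dCLN, and less frequent by 3.25 points in iLN (-3.25, 5xFAD minus WT). This result stood out because the 2 node types went opposite ways with intervals apart in each. Whether the differences themselves differ was not tested, since each node had 1 library per genotype.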

How the results depend on the processing

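Of 107 values recomputed under alternatives for the main results, 92 stayed within their counting error or within 1.5 times the count and 15 moved. Among the 92, 2 differences changed sign within counting error, both without reference TRA V regions: the share with no D call, at 1.11 percentage points (5xFAD minus WT) in place of -0.55, and TRB junction length, at -0.014 residues in place of 0.027. The 145 values for named pairs all stayed within counting error. Those under a changed minimum count were equal to the main value by construction, so they do not show stability. The counts of pairs past 2-fold were the least stable, and so were the pairs behind them. Against 5 TRBV-TRBJ pairs, there were 2 with at least 2 UMIs on both chains (1 of the 5), 3 with cells of 1 TRA chain (2 of the 5), 8 of 49 without reference V regions (2 of the 5), 2 with a pseudocount of 1 (both among the 5), 17 of 134 with a minimum of 10 clonotypes (all 5) and 1 of 25 with a minimum of 40 (among the 5). Against 7 TRAV-TRAJ pairs, there were 4 of 12 without reference V regions (0 of the 7), 4 with a pseudocount of 1 (each among the 7), 29 of 131 at 10 clonotypes (all 7) and 2 of 26 without ambiguous V calls (both among the 7). Against 7 TRAV-TRBV pairs, there were 4 of 43 without reference V regions (2 of the 7), 23 of 126 at 10 clonotypes (all 7) and 3 of 17 at 40 (each among the 7). Counts that stayed could also change members. Without ambiguous V calls there were 5 of 59 TRBV-TRBJ pairs (3 of the 5) and 8 of 58 TRAV-TRBV pairs (4 of the 7). Restricted to TRA V regions other than the reference, the difference in TRA chains with 1 UMI was -1.45 percentage points in place of -3.25. The difference in matching pairs per 1000000, 5xFAD minus WT, was then -195 (5.66 in 5xFAD, 201 in WT) in place of -70.2, an alternative chosen after seeing the data. No clone mixed reference and other V regions, so leaving out the mixed pairs of cells raises the rate by itself. The share of cells in clones stayed within counting error, at 1.35% in 5xFAD and 10.1% in WT. Beyond this, the cause of the moved values was not tested.

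No TRAV-TRAJ pair reached 40 clonotypes, or 20 with TRAV genes as called, so those alternatives gave no value. For TRAV-TRBV pairs, TRAV genes as called gave 5 of 12 past 2-fold (41.7%), against 7 of 66 (10.6%) by subgroup. That value was counted as stayed by the number of pairs, not by the share. Requiring 2 UMIs makes the share with 1 UMI 0 by construction. No paired analysis was possible because the dCLN groups had 1 library each, sharing 1 replicate number, and the other nodes were not taken as replicates of dCLN. With 2742 cells in 5xFAD and 1227 in WT, the WT library sets the width of most intervals.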
